A study of Mus musculus with 5 samples.

Results

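The genes described here are 10 chaperones and folding factors of the endoplasmic reticulum (ER): Hspa5, Hsp90b1, Hyou1, Dnajb11, Creld2, Sdf2l1, Pdia4, Pdia6, Calr and Manf. They were chosen by name, as the array probes whose platform symbol or older synonym is one of these genes, out of 16637 genes named on the array. All 10 were found, 9 by their current symbol and Manf under its older symbol Armet, and each had 1 probe. The series measured liver RNA of C57BL/6 wild-type (WT) and leptin-deficient ob/ob mice, some of them fed nordihydroguaiaretic acid (NDGA), a lignan of creosote bush and an inhibitor of lipoxygenases, on 1-colour Phalanx Mouse OneArray slides. There were 5 groups, with 1 array each: WT on a high-fat diet with NDGA, WT on a high-fat diet, ob/ob on chow with NDGA, ob/ob on chow, and WT on chow. NDGA was given at 2.5 g per kg of food and the diets lasted 16 weeks. The design text gives RNA from 3 animals per group, and the sources used here do not say whether it was pooled. The ob/ob mice lack leptin in every tissue, and no group was given NDGA on chow in WT or a high-fat diet in ob/ob. The age and sex of the animals were not used here. With 1 array per group there is no replicate check, so no p-value or error can be given for any difference between groups.

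Proteins that enter the secretory pathway fold in the lumen of the ER, and the liver, which makes most plasma proteins, carries a large load of them. When unfolded proteins build up, the sensors IRE1-alpha, PERK and ATF6 set off the unfolded protein response, in which ATF6 and spliced XBP1 raise the transcription of lumenal chaperones. ER stress has been described in the livers of obese mice. Hspa5 encodes BiP, the central HSP70 chaperone of the lumen, and Hsp90b1 encodes GRP94, its HSP90 counterpart. Hyou1 encodes a large HSP70-like protein that exchanges the nucleotide of BiP, and Dnajb11 and Sdf2l1 encode a DnaJ co-chaperone of BiP and a protein found in complexes with it. Pdia4 and Pdia6 encode protein disulfide isomerases, Calr encodes calreticulin, a lectin chaperone that binds glycoproteins and calcium, and Creld2 and Manf encode small secreted or ER-resident proteins induced by ER stress.

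Promoter windows, from 250 bases before to 50 after the annotated gene start, were held in the RefSeq table (GRCm38.p6) for 8 of the 10 genes, all but Hyou1 and Manf. The ER stress element, the site through which NF-Y and ATF6 act together, was searched on both strands as CCAAT, any 9 bases, then CCACG. It was present in 5 of these 8 genes, Hspa5, Hsp90b1, Creld2, Pdia6 and Calr, and in 0.119% of all 32851 windows of the same length. The second form, ATTGG, any 1 base, then CCACG, was in 1 of the 8 (Dnajb11, at 8 to 18 bases after the start, as ATTGGCCCACG) and in 0.0365% of all windows. The unfolded protein response element TGACGTGG was in 0 of the 8 and in 0.676% of all windows. A CCAAT box, which is part of the first motif and, on the opposite strand, of the second, was in all 8 and in 37.4% of all windows. The 250 bases before the start are shown for Hspa5, the gene in which the element is best known, for Hsp90b1, which held 2 copies, and for Creld2 and Pdia6, which were at least 2-fold lower with NDGA on the high-fat diet; capitals mark the ER stress element.
Hspa5 (chr2:34771840-34772089, plus strand): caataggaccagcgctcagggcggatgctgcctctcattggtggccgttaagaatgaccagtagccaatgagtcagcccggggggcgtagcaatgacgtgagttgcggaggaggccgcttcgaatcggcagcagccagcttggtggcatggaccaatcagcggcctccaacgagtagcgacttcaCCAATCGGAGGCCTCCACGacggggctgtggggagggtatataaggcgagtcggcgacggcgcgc
Hsp90b1 (chr10:86705445-86705694, minus strand): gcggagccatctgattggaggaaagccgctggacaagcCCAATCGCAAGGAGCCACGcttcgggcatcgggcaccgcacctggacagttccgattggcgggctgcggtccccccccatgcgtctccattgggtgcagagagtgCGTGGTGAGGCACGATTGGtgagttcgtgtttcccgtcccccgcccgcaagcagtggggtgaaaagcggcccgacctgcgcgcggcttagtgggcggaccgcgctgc
Creld2 (chr15:88819396-88819645, plus strand): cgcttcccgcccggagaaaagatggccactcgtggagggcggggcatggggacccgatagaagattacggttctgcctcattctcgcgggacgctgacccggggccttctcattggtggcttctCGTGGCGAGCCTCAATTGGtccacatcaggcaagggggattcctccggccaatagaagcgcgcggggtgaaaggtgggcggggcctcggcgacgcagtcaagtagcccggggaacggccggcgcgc
Pdia6 (chr12:17266339-17266588, plus strand): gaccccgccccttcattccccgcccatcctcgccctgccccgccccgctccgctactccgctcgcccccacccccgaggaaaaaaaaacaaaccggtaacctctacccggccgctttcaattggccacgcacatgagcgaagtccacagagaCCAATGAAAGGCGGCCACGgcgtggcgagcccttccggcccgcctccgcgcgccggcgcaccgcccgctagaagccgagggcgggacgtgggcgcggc

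In Hspa5 the element ran from base -65 to -47 and in Pdia6 from -98 to -80, both on the strand of the gene. In Creld2 it ran from -126 to -108 and in Calr from -162 to -144, as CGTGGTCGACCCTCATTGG, both on the opposite strand. Hsp90b1 held 1 copy on each strand. These are matches of letters and not measured binding sites, and the windows of Sdf2l1 and Pdia4 held 3 or more CCAAT boxes without either ER stress element.

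**Figure D1:**
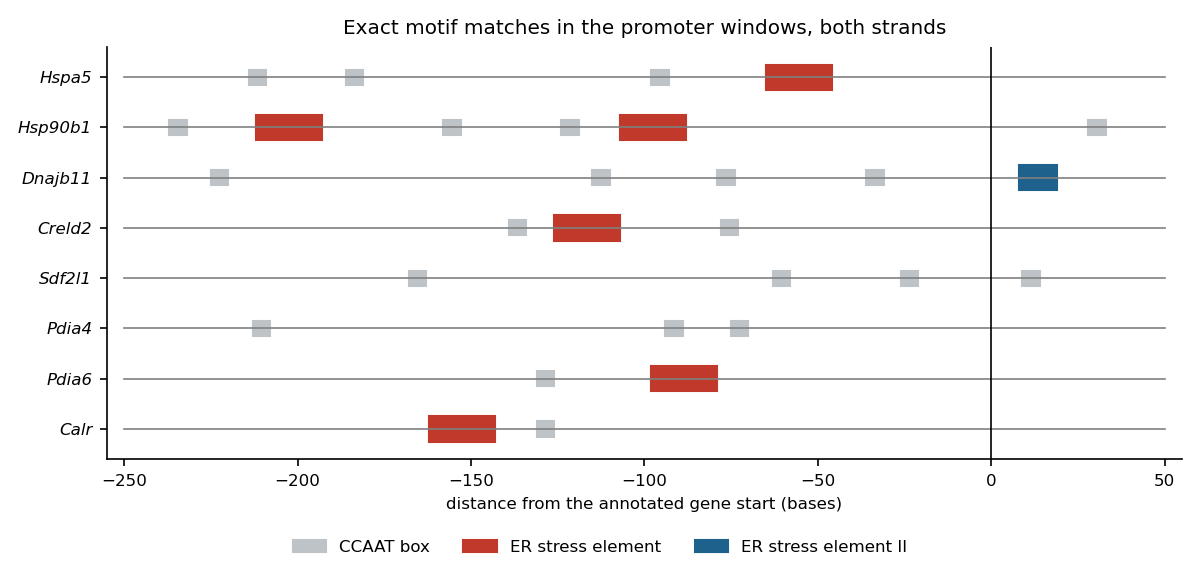
Exact matches of the CCAAT box (grey), the ER stress element (red) and its second form (blue) in the promoter windows of 8 genes, by distance from the annotated start in bases. The ER stress element was found in Hspa5, Hsp90b1, Creld2, Pdia6 and Calr, and the second form in Dnajb11.

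The deposited values are linear probe intensities, whose median over all probes was 71.0 on the ob/ob NDGA array, the brightest, and 38.1 to 47.0 on the other arrays. Differences are given on the scale of log2(intensity + 50) after quantile normalization between the 5 arrays, and values per array are the deposited intensities. The offset makes differences of dim probes smaller than they would be without it. A gene passed the filter on dim genes in a comparison when its mean level on the 2 arrays reached the median of all genes, which left 8319 genes, and a difference of at least 1 (2-fold) was counted. For genes with 2 bright probes, the SD of the difference per probe was 0.29 to 0.47 in the 4 comparisons of diet, genotype and NDGA. It was 0.25 to 0.51 over the 7 pairs of arrays compared. This SD measures how far 2 probes of a gene disagree on the same 2 arrays. A shift that both probes share, from the array, the labelling or the animals, cancels in it. Spread between arrays or animals is therefore not measured here. Since each of the 10 genes rests on 1 probe, no second probe checks it. In whole liver, fewer cells of a type and less RNA per cell cannot be told apart.

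Creld2 and Sdf2l1 were bright on all 5 arrays and had the widest ranges of the 10 genes. Creld2 read 603 on WT high-fat diet with NDGA, 1806 on WT high-fat diet, 1439 on ob/ob with NDGA, 710 on ob/ob chow and 2222 on WT chow. Sdf2l1 read 754 on WT high-fat diet with NDGA, 1934 on WT high-fat diet, 1142 on ob/ob with NDGA, 973 on ob/ob chow and 2566 on WT chow. Both were highest in WT chow liver, next in WT high-fat liver, and low on the other 3 arrays. After normalization their ranges over the arrays were 1.86 and 1.78 log2 units.

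Pdia4 and Pdia6, the disulfide isomerases, were dimmer and followed another order. Pdia4 read 83.8 on WT high-fat diet with NDGA, 232 on WT high-fat diet, 493 on ob/ob with NDGA, 60.8 on ob/ob chow and 119 on WT chow. Pdia6 read 67.0 on WT high-fat diet with NDGA, 196 on WT high-fat diet, 280 on ob/ob with NDGA, 68.0 on ob/ob chow and 99.4 on WT chow. Both were high on the WT high-fat and ob/ob NDGA arrays and low on the other 3. Dnajb11, the DnaJ partner of BiP, read 1204 on WT high-fat diet with NDGA, 2050 on WT high-fat diet, 3287 on ob/ob with NDGA, 1207 on ob/ob chow and 1555 on WT chow. Manf read 108 on WT high-fat diet with NDGA, 193 on WT high-fat diet, 257 on ob/ob with NDGA, 84.3 on ob/ob chow and 145 on WT chow. The normalized levels of Dnajb11 and Manf had the same 2 arrays on top, over smaller ranges of 0.79 and 0.80 log2 units.

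Among the HSP70 and HSP90 proteins, Hspa5 read 57.3 on WT high-fat diet with NDGA, 137 on WT high-fat diet, 169 on ob/ob with NDGA, 115 on ob/ob chow and 163 on WT chow. Hsp90b1 read 149 on WT high-fat diet with NDGA, 207 on WT high-fat diet, 264 on ob/ob with NDGA, 133 on ob/ob chow and 244 on WT chow. Both were highest in WT chow liver and lowest in WT liver on the high-fat diet with NDGA after normalization, although the deposited intensity of Hsp90b1 was lowest in ob/ob liver on chow. Hyou1 read 162 on WT high-fat diet with NDGA, 122 on WT high-fat diet, 164 on ob/ob with NDGA, 139 on ob/ob chow and 133 on WT chow. Its range of 0.42 log2 units was the smallest among the 9 genes above the filter. Calr read -1.15 on WT high-fat diet with NDGA and 8.05 to 8.69 on the other arrays, near background throughout, so its probe gave no usable level and Calr passed the filter in none of the comparisons. The probes of Hspa5 and Hsp90b1 were also modest in brightness, at the 55.5th and 63.8th percentile of all genes by mean level.

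**Figure D2:**
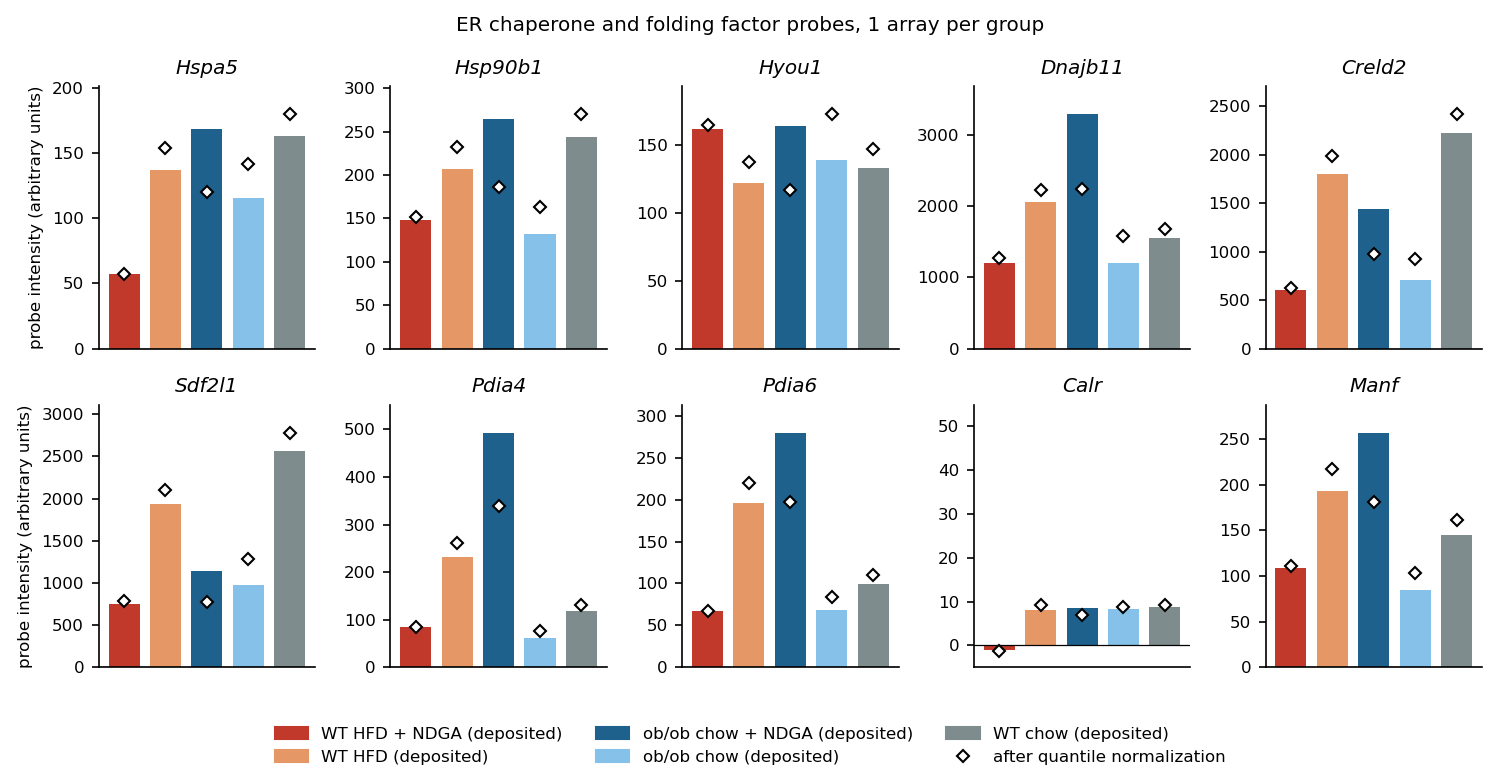
Probe intensity (arbitrary units, linear axes) of the 10 genes on the 5 arrays, 1 array per group, with bars for deposited values and open diamonds for values after quantile normalization. Creld2 and Sdf2l1 were highest in WT chow liver, Pdia4 and Pdia6 were high on the WT high-fat and ob/ob NDGA arrays, and Calr lay near background.

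High-fat diet against chow in WT liver asks what diet-induced obesity did to these genes. The disulfide isomerases Pdia4 and Pdia6 were higher on the high-fat array by 0.77 and 0.75, Dnajb11 by 0.40 and Manf by 0.33. Sdf2l1 (-0.40), Creld2 (-0.28), Hsp90b1 (-0.18), Hspa5 (-0.17) and Hyou1 (-0.07) were slightly lower. Of the 9 genes passing the filter, 0 were at least 2-fold higher, as 2.13% of the whole array was, and 0 were at least 2-fold lower, as 1.36% was. Their median was -0.07, against -0.01 for all genes. The SD per probe was 0.35, and with 4 genes above 0 and 5 below, the chaperones had no common direction on the diet.

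The question for diet-obese WT liver is how NDGA in a high-fat diet compared with that diet without it. Of the 9 genes passing the filter, 8 were lower with NDGA, as were 52.8% of all genes passing it. At least 2-fold lower were 4, Creld2, Sdf2l1, Pdia4 and Pdia6. Over the whole array 1.56% of genes passing the filter were that much lower and 0.914% that much higher, and 0 of the 9 chaperones were 2-fold higher. Creld2 was lower by 1.58 log2 units (-1.58), a 2.99-fold difference, and ranked 21st from the lowest of 8319 genes. Sdf2l1 was at -1.35 and ranked 35th from the lowest, and Pdia4 and Pdia6 were both at -1.20 and ranked 59th and 60th. Hspa5 read 57.3 with NDGA and 137 without, Pdia6 67.0 and 196, and Pdia4 83.8 and 232. These genes were dim with NDGA, so their passing of the filter rested on the array without it. Hspa5 was at -0.93, Dnajb11 at -0.78, Manf at -0.73 and Hsp90b1 at -0.49. Hyou1 was the exception, at 0.20, which lay within the SD per probe. The median of the 9 genes was -0.93, against -0.03 for all genes, and the SD per probe was 0.34. The direction of the lower members was known before this description was made, so the count describes these 2 arrays and is no independent evidence. With an offset of 200 in place of 50, Pdia4 and Pdia6 were below 2-fold.

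Both of the preceding comparisons share the WT high-fat array, so the array for high-fat diet with NDGA was also set directly against lean chow liver. Creld2 (-1.86), Sdf2l1 (-1.75) and Hspa5 (-1.10) were at least 2-fold lower than in WT chow liver, among 8 of the genes passing the filter, set beside 0.673% of the array that was 2-fold lower and 0.829% that was higher. Hspa5 read 57.3 with NDGA and 163 on chow, so its passing of the filter rested on the chow array. Hsp90b1 was at -0.67, Pdia4 at -0.43, Manf at -0.40 and Dnajb11 at -0.38, and Pdia6, at -0.45, lay below the filter. Hyou1 was the 1 gene above the chow level, at 0.13, within the SD per probe of 0.25. The other 8 genes can be set in 2 groups by their values relative to lean liver. Creld2, Sdf2l1, Hspa5 and Hsp90b1 were not higher on the high-fat diet alone and lay at -0.67 or lower with NDGA. Pdia4, Pdia6, Dnajb11 and Manf were higher on the high-fat diet alone. With NDGA these lay within 0.45 log2 units below the chow level. The groups were read from these same values and were not tested. On the high-fat diet Creld2 (-0.28), Hsp90b1 (-0.18), Hspa5 (-0.17) and Manf (0.33) lay within the SD per probe of 0.35. With NDGA, Hsp90b1 (-0.67) and Pdia6 (-0.45) lay close together, beside an SD per probe of 0.25.

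**Figure D3:**
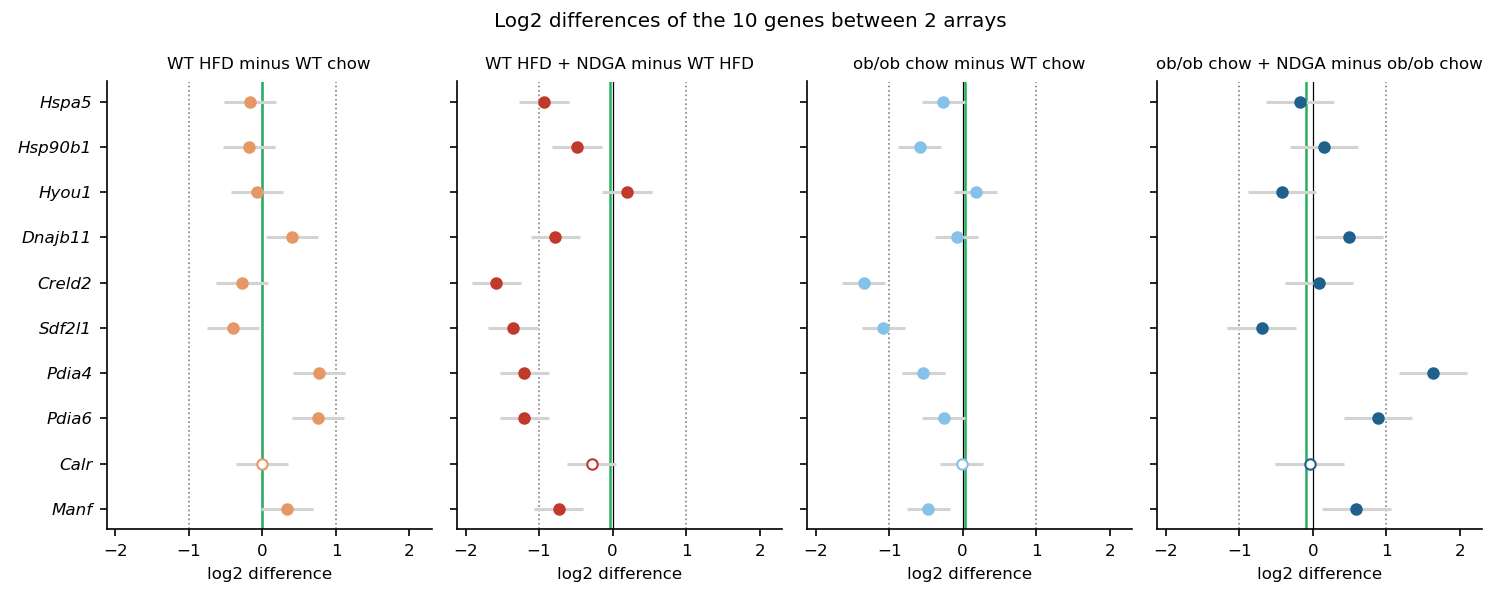
Log2 differences of the 10 genes in 4 comparisons, each between 2 arrays; grey bars show the SD per probe from genes with 2 bright probes, open points are genes below the filter, the green line is the median of all genes and dotted lines mark 2-fold. With NDGA on the high-fat diet, 8 of 9 genes lay below 0, where 52.8% of all genes did, down to -1.58 for Creld2, and Hyou1 lay at 0.20. That value of Hyou1 was within the SD per probe. The grey bars leave out any shift shared by the probes of an array.

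The ob/ob chow array set against WT chow addresses genetic obesity without NDGA. Creld2 (-1.35) and Sdf2l1 (-1.08) were at least 2-fold lower in ob/ob, 2 of 9 genes passing the filter, set beside 1.82% of the array that was 2-fold lower and 1.03% that was higher. In rank they stood 95th and 129th from the lowest of 8319 genes. Hsp90b1 was at -0.59, Pdia4 at -0.53, Manf at -0.47, Hspa5 and Pdia6 both at -0.26, and Dnajb11 at -0.08, with Hyou1 alone above 0 (0.18). The median was -0.47, against 0.04 for all genes, with an SD per probe of 0.29. Without normalization the median of all genes was -0.15 in this comparison. Set against the diet-obese WT array, ob/ob liver was at least 2-fold lower for Pdia4 (-1.31), Creld2 (-1.07) and Pdia6 (-1.01), set beside 1.96% of the array that was 2-fold lower and 0.337% that was higher. Pdia4 read 60.8 in ob/ob and 232 on the WT high-fat array, and Pdia6 68.0 and 196. Their passing of the filter there rested on the WT high-fat array. The lower level of Creld2 and Sdf2l1 therefore stood in ob/ob liver on chow, without NDGA, as well as in WT liver given NDGA on the high-fat diet.

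NDGA on chow against chow alone in ob/ob liver gives the NDGA difference in genetic obesity, on another base diet than in WT. Pdia4 was higher by 1.64, a 3.11-fold difference, ranked 52nd from the highest, and was the only 1 of 9 genes passing the filter that was at least 2-fold apart. In this comparison 6.77% of all genes lay 2-fold or more above and 0.505% below, so 1 of 9 is not read as a result about the chaperones. Pdia4 read 493 with NDGA and 60.8 without, and Pdia6 280 and 68.0, so their passing of the filter rested on the NDGA array. Pdia6 was at 0.89, Manf at 0.59, Dnajb11 at 0.49, Hsp90b1 at 0.15 and Creld2 at 0.08, while Hspa5 (-0.17), Hyou1 (-0.42) and Sdf2l1 (-0.69) lay below 0. The median was 0.15, against -0.09 for all genes, with the largest SD per probe of the 4 comparisons, 0.47. These values depend on the normalization, since the ob/ob NDGA array was the brightest and the median of all genes was 0.68 without normalization. On the deposited values Pdia4 was at 2.29, Pdia6 at 1.48, Dnajb11 at 1.41 and Manf at 1.19, the signs of Hspa5 (0.40), Hyou1 (0.18) and Sdf2l1 (0.22) turned, and 4 of 9 were at least 2-fold higher, as 32.4% of the whole array was on those values (0.0601% was at least 2-fold lower). Relative to WT chow liver, ob/ob liver with NDGA was still lower for Sdf2l1 (-1.78) and Creld2 (-1.26) and was higher for Pdia4 (1.10), set beside 3.23% of the array that was 2-fold lower and 7.48% that was higher. On the deposited values these were -1.13, -0.61 and 1.68.

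The 2 NDGA comparisons share no array, so they can be set side by side. Of the 9 genes above the filter on the mean of 5 arrays, 6 were lower with NDGA in WT and higher with NDGA in ob/ob, namely Hsp90b1, Dnajb11, Creld2, Pdia4, Pdia6 and Manf. That combination was held by 35.2% of all genes, and opposite signs in either direction by 74.1%. The NDGA difference in ob/ob exceeded that in WT by at least 1 for 5 of the 9 chaperones (Dnajb11, Creld2, Pdia4, Pdia6 and Manf) and for 16.7% of all genes. Without normalization, 8 of 9 chaperones and 47.0% of all genes were lower in WT and higher in ob/ob, and 8 of 9 and 36.6% differed by at least 1. Opposite signs were thus common over the whole array, and the ob/ob values of Creld2 (0.08) and Hsp90b1 (0.15) lay within the SD per probe. Sdf2l1 and Hspa5 were lower with NDGA in both settings, at -0.69 and -0.17 in ob/ob and -1.35 and -0.93 in WT, but without normalization both were above 0 in ob/ob (0.22 and 0.40). The difference between the settings could not be tested with 1 array per group. The settings differ in both genotype and base diet, which cannot be told apart here.

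**Figure D4:**
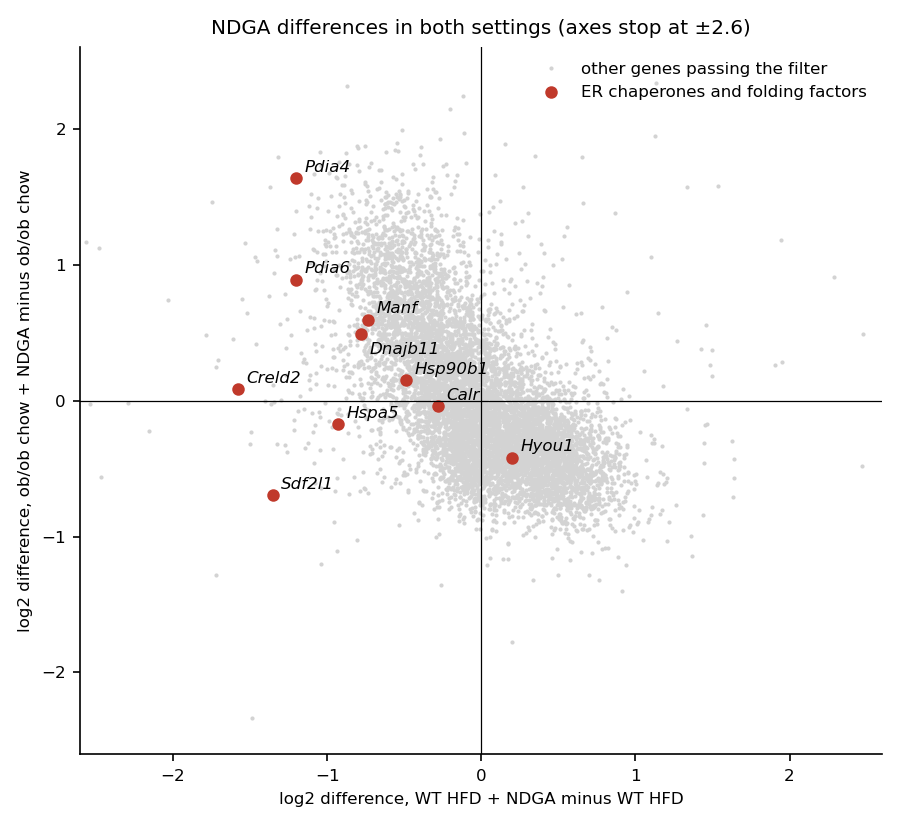
Log2 difference with NDGA in WT on high-fat diet (horizontal) and in ob/ob on chow (vertical) for 8320 genes, with the 10 chaperones in red; 16 genes lie beyond the axes at 2.6. The cloud of all genes runs from upper left to lower right, and Pdia4 (-1.20 and 1.64), Creld2 (-1.58 and 0.08) and Sdf2l1 (-1.35 and -0.69) lie at its left edge.

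Other genes of the ER and of protein folding were grouped in 10 lists. With NDGA on the high-fat diet, few of their members were at least 2-fold apart, but the medians of the lumenal and secretory lists lay below the median of all genes (-0.03). Of all genes passing the filter, 52.8% were lower and 1.56% at least 2-fold lower. Among lectin chaperones and disulfide enzymes, 14 of 16 genes passing the filter were lower, 1 of them at least 2-fold, with a median of -0.53. This was Ero1b, an oxidase that recharges protein disulfide isomerase (-1.50; intensity 988 with NDGA and 2787 without). Txndc5, a thioredoxin-domain disulfide isomerase, was at -0.86 and Mogs, the first glucosidase of glycan trimming, at -0.69. Among co-chaperones and prolyl isomerases, 11 of 12 were lower with a median of -0.32, and Dnajb9, a DnaJ protein that represses IRE1-alpha, was the 1 at least 2-fold lower (-1.13; 825 with NDGA and 1763 without). Sec63, which couples BiP to the translocon, was at -0.65.

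The same comparison gave a median of -0.55 for the translocon, signal recognition particle and signal peptidase, with Tram1 at -1.18 and Spcs2 at -0.95. N-glycosylation genes had a median of -0.36, with Ddost, a subunit of the oligosaccharyltransferase, at -1.18. Vesicle transport genes, the COPII coat and the receptors that return KDEL-tailed chaperones to the ER, had a median of -0.39, with Kdelr2 at -1.03 and Kdelr1 at -0.60. For ER-associated degradation the median was -0.32, and 0 of 13 genes were 2-fold apart. Each of the translocon, N-glycosylation and vesicle transport lists had 1 gene at least 2-fold lower and 0 higher. Cytosolic heat shock chaperones had a median of -0.49, with Chordc1, a co-chaperone of HSP90, at -1.06 and Cryab, a small heat shock protein abundant in muscle, at 1.45. Mitochondrial chaperones had a median of -0.21. The lower medians were thus not restricted to the ER.

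The sensors and transcription factors of the response did not share the lower median. With NDGA on the high-fat diet their median was 0.25, and 0 of 9 were at least 2-fold apart. Of the 9, 6 were above 0 and 3 below, and the lowest was Eif2ak3, which encodes PERK, at -0.87 (71.7 with NDGA and 154 without). Xbp1 was bright on every array, from 23582 on ob/ob chow to 28204 on WT high-fat diet with NDGA, and was at 0.29; the array does not show its spliced form. For targets of PERK and ATF4 the median was -0.02 and 0 of 7 were 2-fold apart; Atf4 itself was at -0.78 and Ddit3, which encodes CHOP, at -0.17.

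On the high-fat diet against chow, Tmx2, an ER membrane thioredoxin, was at 1.07 and Hspa9, the mitochondrial HSP70, at 1.14, and Dnajb9 was at 0.92. In ob/ob against WT none of the 10 lists held a gene at least 2-fold apart, where 1.82% of the array was lower and 1.03% higher. With so few genes in each list, this absence is not read as a result about them. Their medians ran from -0.22 for cytosolic heat shock chaperones to 0.11 for vesicle transport, all closer to 0 than the -0.47 of the 10 chaperones' list. Derl3, a degradation factor known as a target of the response, was at -0.89 there and Pdia3, the isomerase that works with calreticulin, at -0.55. With NDGA in ob/ob, N-glycosylation genes had a median of 0.56 and mitochondrial chaperones 0.60, with Ostc at 1.24, Fkbp2, an ER prolyl isomerase, at 1.42, Sec23a at 1.34 and Hspa9 at 1.87. The sensors had a median of -0.34 in that comparison, with Xbp1 at -0.97, although its deposited intensity was 25299 with NDGA and 23582 without, so its direction rests on the normalization.

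**Figure D5:**
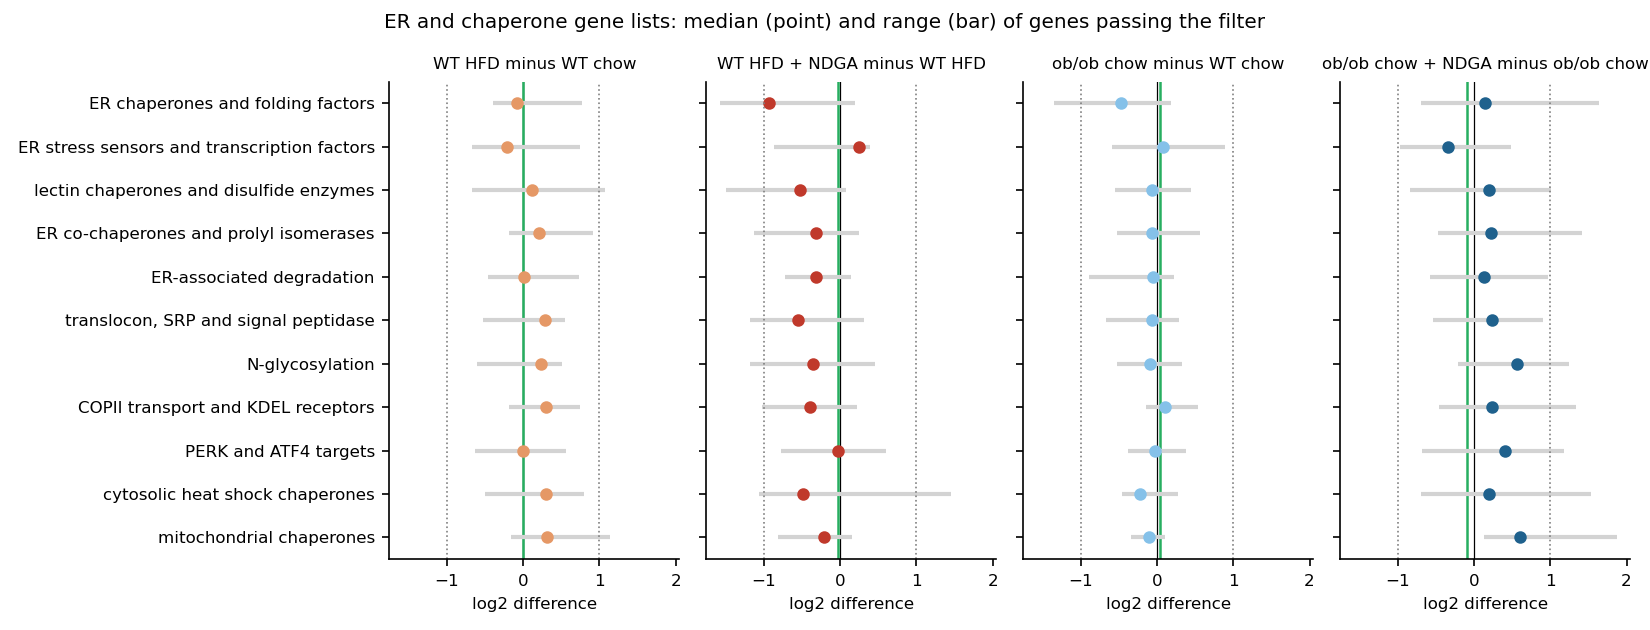
Median (points) and range (grey bars) of the log2 difference of genes passing the filter, for the 10 chaperones (top) and 10 other ER and chaperone lists, in 4 comparisons; the green line is the median of all genes and dotted lines mark 2-fold. With NDGA on the high-fat diet the chaperones had the lowest median of the 11 lists shown (-0.93), followed by the translocon list (-0.55), and the sensors had the highest (0.25).

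The ER stress element gave a second grouping, by sequence, which overlaps the first. Of 37 genes of the RefSeq table with the element in a window, 20 were named on the array, 5 of them among the 10 chaperones. With NDGA on the high-fat diet their median was -0.58 over the 11 passing the filter. Creld2, Ero1b and Pdia6 were at least 2-fold lower, where 1.56% of the array was. Creld2 and Pdia6 are among the 10 chaperones, so their values are no further evidence. Hspa5 (-0.93) and Hsp90b1 (-0.49) also enter that median, and a median without the chaperones is not given here. In ob/ob against WT the median was -0.26 over 12, with Creld2 at least 2-fold lower, beside 1.82% of the array. On the high-fat diet against chow it was -0.14 over 12, with 0 at least 2-fold apart. With NDGA in ob/ob it was 0.08 over 11, also with 0 at least 2-fold apart. Acacb, the mitochondrial acetyl-CoA carboxylase, and Adcy3, an adenylyl cyclase, hold the letters of the element too, and stood at 0.65 and -0.78 with NDGA in ob/ob, where the deposited intensity of Adcy3 was 414 with NDGA and 408 without.

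The genes with the most similar profile were sought among 1412 other genes above the filter that varied by at least 1 log2 unit over the 5 arrays, by the root mean square distance to the chaperones' median profile. Serpinh1, the collagen chaperone HSP47, and Morn2 were nearest, each at 0.16, followed by Folr2, a folate receptor of macrophages, and Isg15, an interferon-induced ubiquitin-like protein, each at 0.19. Alas2, the erythroid enzyme of heme synthesis (0.20), Hsd11b1, which regenerates active glucocorticoid in the ER lumen (0.22), Igtp, an interferon-induced GTPase, and Kdm4a, a histone demethylase (both 0.23), came next. The median distance of the 1412 genes was 0.52. The 9 chaperones in the profile lay between 0.18 (Manf) and 0.54 (Sdf2l1) from their own median. The listed genes were picked as the nearest of the 1412, so their small distances follow from that choice and are not set against those of the chaperones. Serpinh1 read 244 on WT high-fat diet with NDGA, 526 on WT high-fat diet, 496 on ob/ob with NDGA, 304 on ob/ob chow and 326 on WT chow.

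Markers of other cells differed beside these results. On WT high-fat diet with NDGA against WT high-fat diet, 5 of 12 macrophage markers passing the filter were at least 2-fold lower (summed intensity of 14 markers 6187 with NDGA and 11060 without). So were 4 of 10 stellate cell markers (5057 with NDGA and 7049 without, 12 markers), where 1.56% of the array was. Of these 10 stellate markers 2 lay above 0, Acta2 (1770 with NDGA and 897 without) and Des (1351 and 924). In the same comparison 7 of 9 skeletal muscle markers passing the filter were at least 2-fold higher, as 0.914% of the array was. Over the 14 markers the summed intensity was 11278 with NDGA and 2294 without. Ckm, the muscle creatine kinase, read 1501 with NDGA and 11.7 without, Cox6a2 1305 and 17.6, and Ckmt2 1238 and 23.0. These genes passed the filter, a mean over the 2 arrays, only through the NDGA array. Tnnt3 went the other way, at 215 with NDGA and 365 without. Among adipocyte markers 1 of 3 was higher (4456 with NDGA and 1908 without, 7 markers), namely Cfd. Of its other members, Lipe was at 0.49, Adipoq read 63.0 with NDGA and 32.3 without, Pparg read 689 with NDGA and 650 without, and Lep, Plin1 and Fabp4 read below 20 on both arrays. Endothelial markers had 0 of 9 at least 2-fold apart (18975 with NDGA and 23607 without, 10 markers) and a median of -0.45, and hepatocyte markers 0 of 9 (237446 with NDGA and 274250 without, 10 markers), with Alb saturated on both arrays. The part of these shifts in the chaperone differences was not tested. Genes of olfactory receptors, a list added after the data were seen, lay above 0 there, opposite to the chaperones. Their median was 0.47 over the 168 of 689 genes that passed the filter. It was -0.31 on the high-fat diet against chow (161 genes), 0.05 in ob/ob against WT (168 genes) and -0.41 with NDGA in ob/ob (156 genes). This class too thus had opposite signs in the NDGA comparisons.

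In ob/ob against WT, macrophage and stellate cell markers were higher, 3 of 12 and 4 of 9 at least 2-fold, where 1.03% of the array was. Their summed intensities were 11711 in ob/ob and 7058 in WT, and 4939 in ob/ob and 2987 in WT. Of the 9 chaperones 8 were lower there, as were 44.1% of all genes passing the filter. On the high-fat diet against chow, 5 of 12 macrophage and 5 of 9 stellate cell markers were at least 2-fold higher, as 2.13% of the array was. The chaperones had no common direction there. With NDGA in ob/ob, 2 of 13 macrophage markers, 1 of 10 stellate markers and 2 of 9 hepatocyte markers (Cps1 at 1.71 and Trf at 1.03) were at least 2-fold higher, where 6.77% of the array was. Of 5 muscle markers passing the filter, 1 was at least 2-fold higher (Mylpf) and 2 lay below 0 (Myh1 at -0.67 and Pvalb at -0.43). Ckm read 316 with NDGA and 12.4 without. Of cells rich in ER, plasma cell markers Jchain, Mzb1 and Tnfrsf17 read at most 23.0 on any array, and the pancreatic acinar markers Prss2, Cpa1, Pnlip, Cuzd1 and Ptf1a at most 42.4, near background in all 5 groups. Other members of these lists were brighter. Sdc1, which epithelial cells also express, read 296 to 792 over the arrays and was at -0.49 with NDGA in WT. Cela1 read 190 to 792 and was at -0.55 with NDGA in WT and 1.05 with NDGA in ob/ob. Ctrb1 was at -0.07 in WT and 0.67 in ob/ob, while Cel, Cela2a and Cela3b were at 0.49, 0.35 and 0.34 in WT and at -0.29, -0.29 and -0.20 in ob/ob. These markers therefore differed in both directions, and their part in the chaperone differences was not tested.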

How the data were processed

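The deposited file holds 1 column of linear probe intensity per array, as judged from its values, which run from below 0 to a pile-up above 65000. The sources used here do not give the authors' scanner, background correction or scaling. Per the labels' protocols, amino-allyl labelled RNA was hybridised in 1 colour (Cy5). Of 29922 probes, 21020 had 1 gene symbol, 0 several and 8902 none; symbols were updated through RefSeq (GRCm38.p6), 17558 being current, 3410 replaced through a synonym and 52 kept. Where a gene had several probes, the brightest on average was used.

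Intensities were quantile normalized, 50 was added and log2 taken (Python 3.11.15, numpy 2.4.6, pandas 2.3.3, statsmodels 0.14.6). Alternatives changed the normalization, the offset, the probe rule, the filter and the treatment of saturated genes. The steps were tested on simulated data. With 1 array per group no test was run, and the number of arrays limits the precision. The members and all gene lists were chosen with earlier results of these data known. Genes named are the 10 members, up to 4 genes per list and comparison by size of difference, and the 8 genes nearest in profile; Ddit3, Xbp1 for NDGA in WT, Ckm in ob/ob, and several of the cell markers fall outside that rule and were named after their values were seen. A planned list of proteins with ER retention tails was not analysed here.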

Additional observations from a re-analysis of the deposited data

Results flagged for a closer look

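The NDGA difference had opposite signs in ob/ob and in WT for 7 of the 9 genes above the filter, with 1 array on each side, and the difference was not tested. The ob/ob mice were on chow and these WT mice on the high-fat diet, so genotype and base diet cannot be told apart. Opposite signs were held by 74.1% of all genes above the filter, and the ob/ob values of Creld2 (0.08) and Hsp90b1 (0.15) were well within the SD per probe of 0.47. The NDGA difference in ob/ob minus that in WT, on the log2 scale, was 2.83 for Pdia4, 2.09 for Pdia6, 1.66 for Creld2, 1.33 for Manf, 1.27 for Dnajb11 and 0.64 for Hsp90b1. For Hyou1, which was higher with NDGA in WT and lower in ob/ob, it was -0.62, and without normalization it was -0.12 with Hyou1 higher with NDGA in both settings. On the deposited values without normalization it was 3.37 for Pdia4, 2.56 for Pdia6 and 2.48 for Creld2, and the median over all genes was 0.60 there and -0.10 after normalization.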

How the results depend on the processing

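There were 9 alternatives planned and 2 added after the data were seen: a filter on the mean of 5 arrays, and quantile normalization without the ob/ob NDGA array, which gives no value for that group. The median of the chaperones relative to all genes kept its sign under every alternative in each comparison: -0.28 to -0.03 for high-fat diet, -1.33 to -0.63 for NDGA in WT, -1.12 to -0.28 for ob/ob against WT and 0.14 to 0.29 for NDGA in ob/ob. It moved by more than the SD per probe with the filter at the 75th percentile, which left 3 chaperones, to -1.33 for NDGA in WT and -1.12 for ob/ob against WT. For NDGA in WT, the count at least 2-fold lower was 2 with an offset of 200 and 2 with that filter, in place of 4. For NDGA in ob/ob, the count at least 2-fold higher was 4 without normalization, 2 with median centring, 2 after loess (span 0.3), 2 with an offset of 16, 0 with an offset of 200 and 0 with the 75th percentile filter, in place of 1. The filter removed genes, and for the others the cause was not tested. The share of all genes that much higher was 6.77% in the main setting and 32.4% without normalization. Shares under the other alternatives are not given here for either NDGA comparison, so the changes in these counts are not read as a result about the chaperones. Creld2 and Sdf2l1 were at least 2-fold lower under all 11 alternatives both for NDGA in WT (Creld2 -1.63 to -1.40, Sdf2l1 -1.42 to -1.21) and for ob/ob against WT (Creld2 -1.58 to -1.22). Dim probes limit Hspa5, Pdia4, Pdia6 and Manf, whose differences shrink with a larger offset: Hspa5 was at -1.22 to -0.46 for NDGA in WT. No paired analysis was possible because each group has 1 array.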
